A study of Mus musculus with 2 samples.

Results

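The subject is the constant region genes of the immunoglobulin heavy chain and the J chain gene. The members were fixed by symbol: Igha, Ighm, Ighd, Ighe, Ighg1, Ighg2b, Ighg2c, Ighg3 and Jchain, 9 of the 32285 genes counted. All 9 had a row in both count matrices. They are described mainly in 15489 plasma-like and 250 B-like cells of the 25120 cells kept.

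Immune cells of the mouse small intestine lamina propria were sorted as live CD45+ cells lacking EPCAM, Ter119 and CD31, which removes epithelium, red cells and endothelium. The F/F library came from Aster-A F/F mice and the CD4-Cre library from their CD4-Cre; Aster-A F/F littermates. Each library was 1 pool of cells from 3 female mice aged 10 to 12 weeks, which had been fasted for 16 h and had received olive oil by gavage for 2 h. Both pools carry the floxed Aster-A alleles and differ in Cre, whose Cd4 promoter is active in T cells and not in the B lineage that transcribes these genes. The F/F pool carries no Cre, so Cre and the deletion cannot be told apart. With 1 library per genotype no test between genotypes was possible. Intervals in parentheses are 95% intervals of counting error within a library; they treat cells or molecules as independent and hold no spread between mice.

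A B cell first transcribes Ighm and Ighd together from 1 rearranged heavy chain locus. Class switch recombination then joins the same variable region to a downstream constant gene, so that the cell makes IgG, IgE or IgA instead. The J chain, encoded by Jchain on another chromosome, links IgA into dimers and IgM into pentamers, and the polymeric immunoglobulin receptor carries such polymers across the gut epithelium. IgG and IgE are monomers, with no known place for a J chain. Plasma cells of the gut lamina propria are known for making mostly IgA.

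The J chain binds the secretory tailpiece, a stretch at the end of the secreted alpha and mu chains that gamma chains lack. The last 59 coding bases of 4 secreted transcripts are shown because J chain levels are compared below between cells that use them (GENCODE vM21, GRCm38, minus strand, 5′ to 3′, stop codon left out). Capitals mark cysteine codons in the reading frame.
Igha, chr12:113258771-113258829: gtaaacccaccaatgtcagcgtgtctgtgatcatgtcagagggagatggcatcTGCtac
Ighm, chr12:113420870-113420928: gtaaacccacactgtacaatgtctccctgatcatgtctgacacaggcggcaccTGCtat
Ighg1, chr12:113328979-113329037: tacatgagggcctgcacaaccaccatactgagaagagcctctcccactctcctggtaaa
Ighg2b, chr12:113306392-113306450: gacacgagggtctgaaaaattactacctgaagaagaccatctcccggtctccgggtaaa
In Igha and Ighm all 59 bases lie beyond the splice site of the membrane form, and the codon before the last encodes cysteine. In Ighg1 and Ighg2b 5 bases lie beyond that site, and no cysteine codon was found in the stretch. Igha and Ighm were identical at 40 of the 59 positions, Ighg1 and Ighg2b at 41, Igha and Ighg1 at 11 and Igha and Ighg2b at 12. The counts come from the 3′ end of a gene as a whole, so secreted and membrane transcripts were not separated.

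The 8 heavy chain genes lie in 1 cluster on chromosome 12 of GRCm38, all on the minus strand. In the order of transcription they are Ighm (113418558 to 113422730), Ighd (113406604 to 113416324), Ighg3 (113356224 to 113361232), Ighg1 (113325240 to 113330523), Ighg2b (113302965 to 113307933), Ighg2c (113285325 to 113288932), Ighe (113269260 to 113273248) and Igha (113254830 to 113260236). Jchain lies on chromosome 5 (88519809 to 88527891, minus strand). The 4 IgG genes are related in sequence, so reads that match more than 1 of them could be lost or split in counting. The number of such reads was not measured.

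The F/F library held 222838658 UMIs (unique molecular identifiers, each counting 1 captured RNA molecule) and the CD4-Cre library 200580083. There were 12594 and 12526 cells, with a median of 15319.5 and 14031 UMIs, and 47 cell barcodes occurred in both libraries. Gramd1a, which encodes Aster-A, had a level of 50.2 CPM (UMIs of a gene scaled to a common total of UMIs) in the F/F T-like cells and of 46.2 CPM in those of CD4-Cre. A 3′ count outside the deleted exons does not check a deletion, and the position of the floxed exons was not given in the sources used here.

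Cells were clustered without the members and named from marker lists. Plasma-like cells were 8350 of 12594 in F/F (66.3%) and 7139 of 12526 in CD4-Cre (57.0%). Each of the 9 clusters of this class expressed 17 or 18 of the 18 plasma cell markers. B-like cells formed a single cluster of 80 F/F and 170 CD4-Cre cells, led by Ms4a1, Ebf1, Bank1 and Pax5, with 15 of 17 B cell markers expressed. T-like cells numbered 1297 and 1987 and macrophage-like cells 671 and 456. These last classes should lack every member and serve as the background.

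RNA outside cells was rich in the members. In the 62471 F/F and 62632 CD4-Cre barcodes with 150 to 350 UMIs, too few for an intact cell, Igha stood at 108829 and 107958 CPM. Jchain stood at 43641 and 46424 CPM in the same barcodes. Immunoglobulin genes and Jchain together made up 43.2% and 45.3% of this free RNA. Igha was found in 99.8% and 99.7% of these barcodes, with a median of 25 and 23 UMIs. Free RNA thus carried Igha in nearly every droplet, and at about the CPM of the plasma-like cells themselves, which was 108854 in F/F and 106256 in CD4-Cre.

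The other isotypes were scarce in free RNA. Ighg1 stood at 862 CPM (F/F) and 515 CPM (CD4-Cre), and Ighg2b at 772 and 655 CPM. Ighm stood at 307 and 233 CPM. Ighg3 stood at 26.0 and 11.4 CPM and Ighe at 1.77 and 1.09 CPM. Ighd was represented by 3 UMIs in each library. Igha formed 98.2% and 98.7% of the heavy chain UMIs in free RNA.

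At 150 to 350 UMIs Igha and Jchain were alike in both libraries, whereas Ighg1, Ighg3 and Ighe were more than 1.5-fold higher in F/F. The Ighe intervals overlapped (1.16 to 2.60 and 0.608 to 1.79). In barcodes with 10 to 100 UMIs Ighg1 stood at 418.9 and 402 CPM and Ighg3 at 19.9 and 16.8. With 350 to 500 UMIs Ighg1 stood at 749.1 and 849.5 CPM and Ighg3 at 22.7 and 20.8. Ighg2c had the widest gap of the 9 members at 150 to 350 UMIs and was higher in CD4-Cre. It stood at 3.34 CPM (2.47 to 4.41) in F/F, from 49 UMIs, and at 52.9 CPM (49.1 to 56.9) in CD4-Cre, from 731 UMIs. The 731 UMIs were spread over 676 barcodes, with at most 4 in any of them. In CD4-Cre the free RNA level was above that of the plasma-like cells, 14.8 CPM, whereas F/F plasma-like cells had 5.21 CPM. T-like cells differed in the same direction, with 1 Ighg2c UMI in F/F and 42 in CD4-Cre, the latter in 39 cells with at most 2 each. Macrophage-like cells had 1 Ighg2c UMI in F/F and 14 in CD4-Cre. In dendritic-like cells the gap had the same direction but was smaller, at 7.08 and 10.2 CPM (ratio 1.44, 1.01 to 2.075). An Ighg2c UMI was found in 41 of 424 F/F dendritic-like cells (9.67%) and 72 of 564 CD4-Cre ones (12.8%). Thinned to 1500 UMIs per cell, the shares were 0.948% and 1.79%, against 0.0797% and 0.925% in T-like cells. In barcodes with 10 to 100 UMIs Ighg2c stood at 2.95 CPM (0.802 to 7.54) in F/F, from 4 UMIs. In CD4-Cre it stood at 5.39 CPM (2.33 to 10.6), from 8 UMIs. With 350 to 500 UMIs it stood at 5.68 CPM (1.55 to 14.5) in F/F, from 4 UMIs. The CD4-Cre level in that range was 45.4 CPM (29.1 to 67.6), from 24 UMIs. The Ighg2c intervals of the libraries thus overlapped at 10 to 100 UMIs and did not at 350 to 500.

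**Figure D1:**
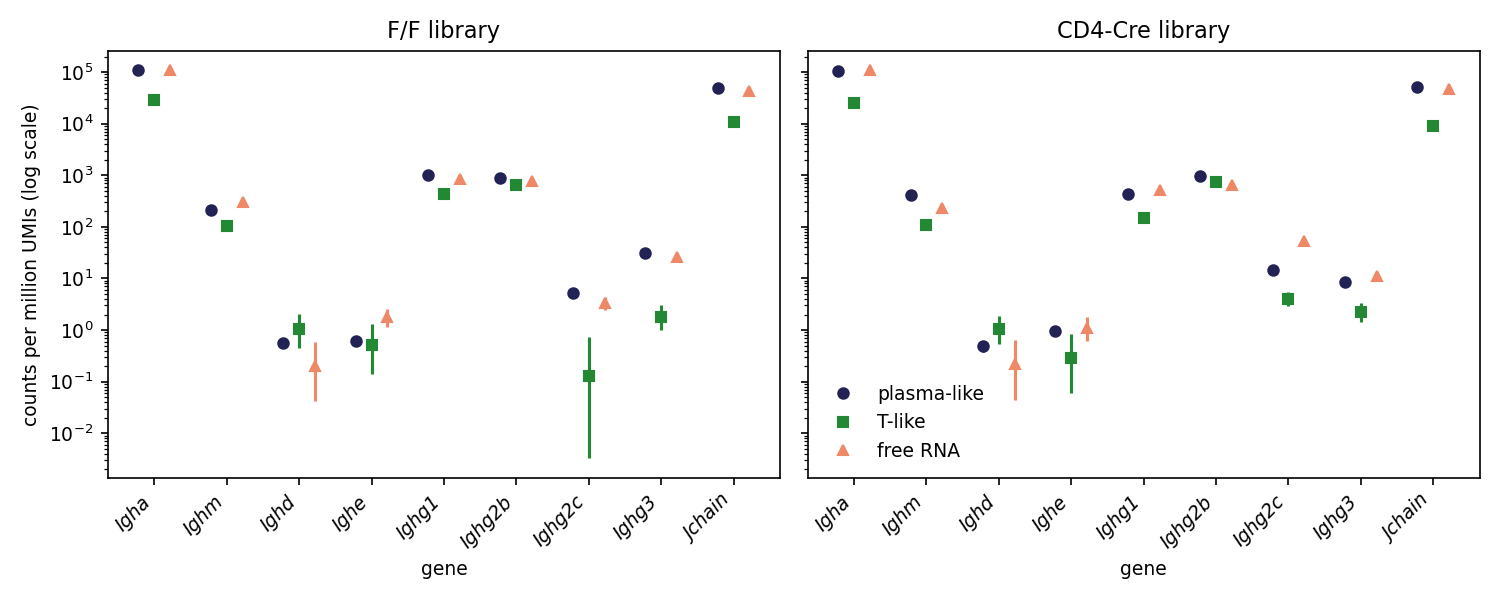
CPM (log axis) of each of the 9 genes in plasma-like cells, T-like cells and free RNA (barcodes with 150 to 350 UMIs), 1 panel per library; vertical lines are 95% Poisson intervals of the counts. Free RNA lies near the plasma-like level for Igha and Jchain, and Ighg2c in CD4-Cre free RNA, at 52.9 CPM, lies above its plasma-like level of 14.8 CPM.

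Intact cells of every named class held Igha molecules. The median was 45 Igha UMIs per cell in F/F and 41 in CD4-Cre T-like cells, and 61 and 55 in macrophage-like cells. These exceed the medians of 25 and 23 in the free RNA barcodes, and the part of free RNA in them was not tested. Plasma-like cells had medians of 1872 and 1826 Igha UMIs, and the ranges from the 25th to the 75th percentile did not overlap those of T-like cells. Jchain behaved alike, with medians of 847 and 894 UMIs in plasma-like cells against 13 and 12 in T-like cells.

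**Figure D2:**
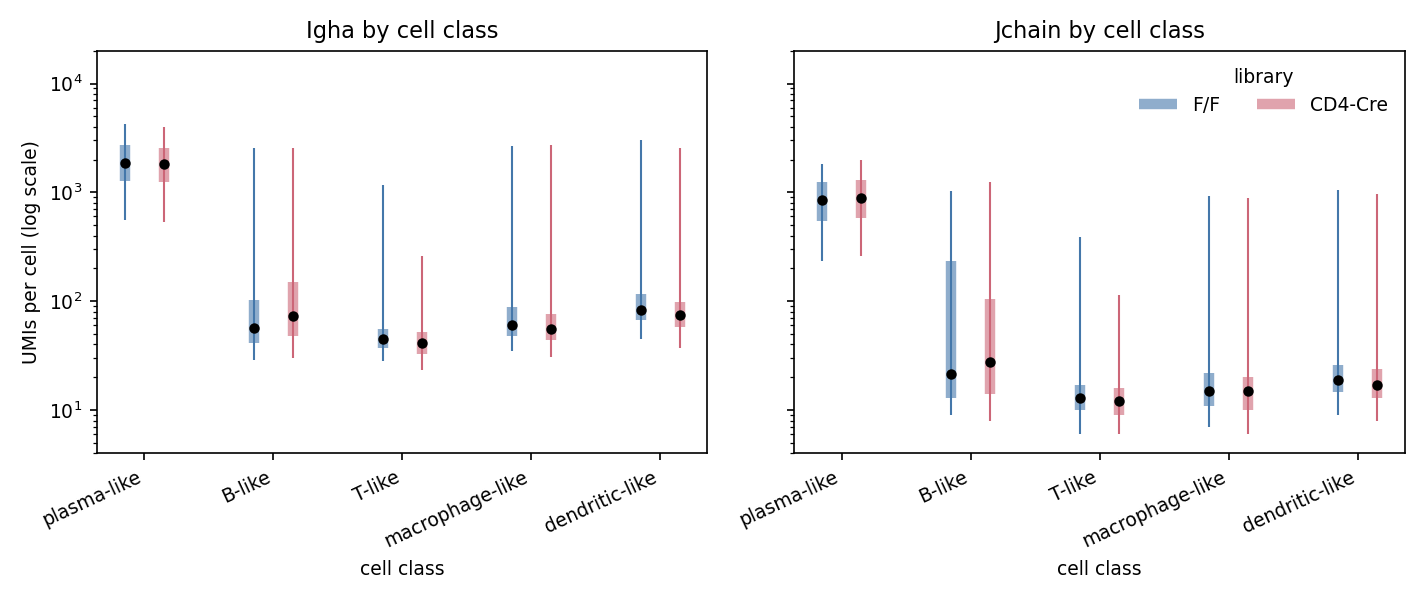
UMIs per cell (log axis) of Igha and Jchain in 5 cell classes; black points are medians, thick bars run from the 25th to the 75th percentile and thin lines from the 5th to the 95th. Plasma-like cells have medians of 1872 and 1826 Igha UMIs, while the other classes have medians of 41 to 83; the 95th percentile of Igha in these runs from 1158 upwards, except in CD4-Cre T-like cells, where it is 260.

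The dominant isotype of a cell was the heavy chain gene with most UMIs, among cells with at least 10 heavy chain UMIs, which every plasma-like cell had. Igha, the IgA heavy chain, was dominant in 8201 of 8350 F/F plasma-like cells (98.2%, 97.9 to 98.5) and in 7035 of 7139 CD4-Cre cells (98.5%, 98.2 to 98.8). Ighg1 was dominant in 95 F/F and 29 CD4-Cre cells, and Ighg2b in 44 and 56. These 2 genes encode the most common gamma chains in these pools. Ighm, the IgM heavy chain, was dominant in 7 and 17 cells. Ighg3 was dominant in 2 F/F cells and no CD4-Cre cell, and Ighg2c in 1 and 2. No plasma-like cell had Ighd or Ighe as its dominant gene, which allows a share of up to 0.0359% in F/F and 0.0420% in CD4-Cre.

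All IgG genes together were dominant in 142 F/F cells (1.70%, 1.43 to 2.00) and in 87 CD4-Cre cells (1.22%, 0.977 to 1.5). The intervals of the pools overlapped. The isotypes within IgG differed more than their sum: the Ighg1 share was 1.14% (0.921 to 1.39) in F/F and 0.406% (0.272 to 0.583) in CD4-Cre, while that of Ighg2b was 0.527% (0.383 to 0.707) and 0.784% (0.593 to 1.017). Ighg1 outnumbered Ighg2b in F/F and the order was reversed in CD4-Cre.

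The same rule called Igha dominant in 1293 of 1296 F/F T-like cells with a call and in 1983 of 1987 CD4-Cre T-like cells, at a median of 46 and 42 heavy chain UMIs. Plasma-like cells had medians of 1897.5 and 1849 heavy chain UMIs. A call of Igha at the T-like level was therefore read as background.

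Most plasma-like cells were close to pure. The dominant gene held a median of 99.9% of a cell's heavy chain UMIs in both libraries. In cells dominated by another gene, Igha remained at a median of 92 UMIs (124 Ighg1 cells), 83.5 UMIs (100 Ighg2b cells) and 92 UMIs (24 Ighm cells), counted over both libraries. The other heavy chain genes had medians of at most 0.5 UMIs in these 3 kinds of cell. Igha-dominant cells had a median of 0 UMIs of each of the other 7 genes.

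A dominant share under 80% marked 48 F/F and 25 CD4-Cre cells as mixed. Each of them paired Igha with another gene: Ighg1 in 18 and 12 cells, Ighg2b in 28 and 11, and Ighm in 2 and 2. Mixed cells had medians of 31262 and 22152 UMIs, against 17752 and 17585 in all plasma-like cells. No mixed cell joined IgG with IgM. Scrublet, a doublet caller, marked 1910 F/F and 758 CD4-Cre cells of all classes, and these were kept. Whether the mixed cells were droplets with more than 1 cell was not tested.

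B cells before switching carry IgM and IgD. In B-like cells Igha was named dominant in 71 of 80 F/F cells and 156 of 170 CD4-Cre cells. All B-like cells had medians of 56.5 and 73 Igha UMIs, against 45 and 41 in T-like cells. With free RNA subtracted, as an alternative, fewer B-like cells had a call. Igha was then dominant in 16 of 37 F/F cells (43.2%) and 36 of 88 CD4-Cre cells (40.9%). The part of free RNA in each call was not tested. Over 300 Igha UMIs, a limit chosen after the values were seen, were found in 16 of 80 F/F cells (20%, 11.9 to 30.4) and 31 of 170 CD4-Cre cells (18.2%, 12.7 to 24.9). Macrophage-like cells reached that level in 16.1% and 13.6% and dendritic-like cells in 16.7% and 15.6%. T-like cells, with median depths of 3814 and 3589 UMIs, reached it in 6.17% and 4.83%. B-like cells over the limit also held a median of 831 and 925 Jchain UMIs and 28243.5 and 28027 UMIs in all, against 5331.5 and 11417 in the other B-like cells. The part of doublets in these cells was not tested.

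With Igha left out of the call, 37 F/F and 71 CD4-Cre B-like cells reached 10 UMIs over the other 7 heavy chain genes together with no tie. Ighm was then dominant in 21 (56.8%, 39.5 to 72.9) and 36 (50.7%, 38.6 to 62.8). Ighg1 was dominant in 10 and 15 cells, Ighg2b in 4 and 17, and Ighg3 in 2 and 3. At least 10 Ighm UMIs were found in 22.5% (F/F) and 21.8% (CD4-Cre) of B-like cells, against 0.308% and 0.554% of T-like cells.

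Ighd, which marks naive B cells, was concentrated in the B-like cluster. At least 1 Ighd UMI was found in 21 of 80 F/F cells (26.3%, 17.0 to 37.3) and 26 of 170 CD4-Cre cells (15.3%, 10.2 to 21.6). The share was 0.617% and 0.453% in T-like cells, whose median depths were 3814 and 3589 UMIs, against 8462.5 and 14149.5 in B-like cells. Thinned to 1500 UMIs per cell, the B-like shares were 7.79% and 4.27%. An Ighm UMI accompanied the Ighd UMI in 20 of the 21 and 24 of the 26 cells. Ighd stood at 35.5 and 13.2 CPM in B-like cells, against 0.562 and 0.489 CPM in plasma-like cells.

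Ighe, the IgE heavy chain, stayed at the edge of detection. Plasma-like cells held 100 Ighe UMIs in F/F and 129 in CD4-Cre, at 0.624 and 0.957 CPM, below the free RNA in both libraries. The highest single cell had 20 and 18 UMIs. The B-like cells held 0 and 2 Ighe UMIs.

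Plasma-like cells were called cycling where at least 3 of 20 proliferation genes appeared among 2000 of a cell's UMIs outside immunoglobulin genes and Jchain. There were 1032 cycling cells of 8192 in F/F (12.6%, 11.9 to 13.3) and 764 of 6954 in CD4-Cre (11%, 10.3 to 11.8); 158 and 185 cells were too shallow for a call. Cells near the limit, with 2, 3 or 4 genes, numbered 220, 135 and 148 in F/F and 165, 99 and 98 in CD4-Cre.

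Cycling cells held more IgG than the others in both pools. In F/F an IgG gene was dominant in 59 of 1032 cycling cells (5.72%, 4.38 to 7.31) and 83 of 7160 others (1.16%, 0.924 to 1.44). In CD4-Cre it was dominant in 18 of 764 (2.36%, 1.40 to 3.70) and 67 of 6190 (1.08%, 0.840 to 1.37). Igha was dominant in 970 F/F and 743 CD4-Cre cycling cells, so it remained the main isotype in either state. Cycling cells were also deeper, with medians of 26747.5 and 25408.5 UMIs against 17034.5 and 17141.5.

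Read the other way, 12.1% of F/F and 10.8% of CD4-Cre Igha cells were cycling. Of the Ighg2b cells, 18 of 44 in F/F (40.9%, 26.3 to 56.8) and 15 of 55 in CD4-Cre (27.3%, 16.1 to 41.0) were cycling. Of the Ighg1 cells, 41 of 95 in F/F (43.2%, 33.0 to 53.7) and 2 of 28 in CD4-Cre (7.14%, 0.877 to 23.5) were cycling. The Ighg1 intervals of the pools did not overlap, while those of Ighg2b did. Of the Ighm cells, 3 of 7 and 3 of 17 were cycling.

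**Figure D3:**
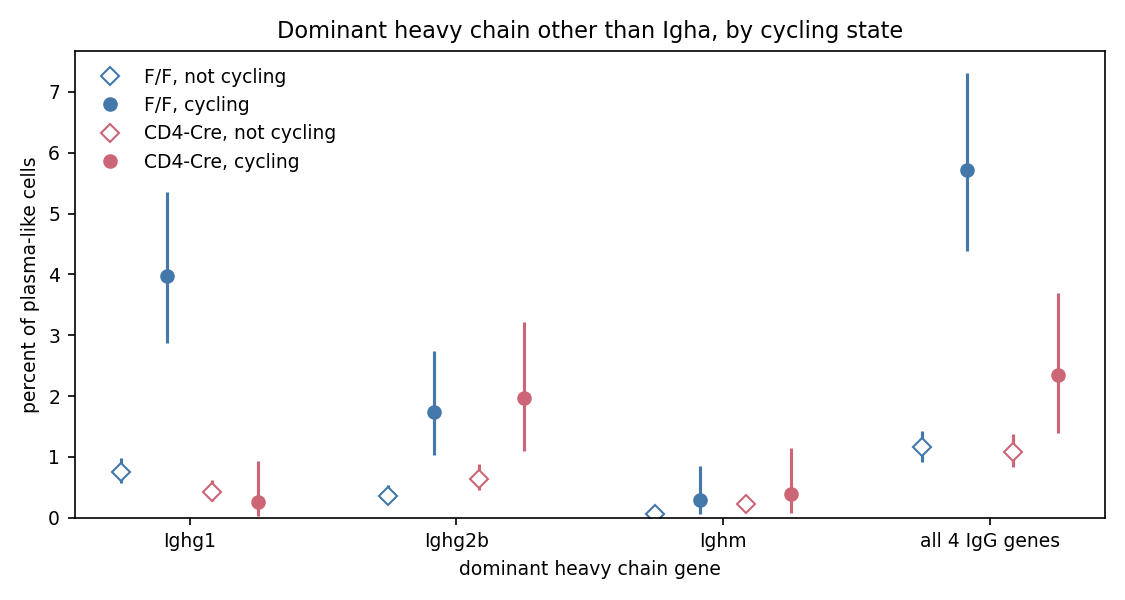
Percent of plasma-like cells with Ighg1, Ighg2b, Ighm or any of the 4 IgG genes dominant, for cycling (filled circles) and other cells (open diamonds) of each library; lines are 95% Clopper-Pearson intervals over cells. Cycling F/F cells have the highest IgG share, 5.72%, followed by cycling CD4-Cre cells at 2.36%; the cells not cycling are at 1.16% and 1.08%.

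Cells of 1 clone share a variable region and are not independent. Among the 84 F/F Ighg1 cells with a clear variable segment, 40 used Ighv1-19, and 20 of the 37 such cycling cells did. The 26 CD4-Cre Ighg1 cells with a segment had Ighv1-47 as the most common, in 10 cells. The Ighg2b cells were spread over 27 segments in 42 F/F cells and 32 segments in 49 CD4-Cre cells, with at most 4 cells per segment. Ighv1-19 was also the most common segment of cycling F/F Igha cells, in 90 of 736 (12.2%). Ighv3-6 was the most common over all F/F Igha cells, in 390 of 6862 (5.68%). A segment is not a clone, since heavy chain junctions were not read.

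Without the most common segment of each isotype and library, an alternative chosen after the data were seen, the F/F IgG share was 37 of 958 cycling cells (3.86%) and 61 of 6800 others (0.897%). In CD4-Cre the shares became 2.24% and 0.911%. The cycling share stayed above the other in both pools.

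Jchain was high in nearly all plasma-like cells and differed between cells of different isotypes. Isotype was not separated from other differences between these cells, such as those in other genes given below. In cells not cycling, the median was 920 Jchain UMIs in 7073 F/F Igha cells and 972 in 6109 CD4-Cre Igha cells, with the 25th to 75th percentile from 612 to 1300 and from 648 to 1336. Ighg1 cells had medians of 367.5 (54 cells) and 445 (26 cells), and Ighg2b cells 369 (26 cells) and 382 (40 cells). Ighm cells, with 4 in F/F and 14 in CD4-Cre, had medians of 733 and 855.5. Both kinds of IgG cell thus had lower medians than IgA and IgM cells in both libraries, and the few IgM cells lay between IgG and IgA cells.

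Jchain was also scaled to the UMIs outside immunoglobulin genes and Jchain, written here as CPM of other RNA. Igha cells not cycling had 128047 (F/F) and 141698 (CD4-Cre) Jchain CPM of other RNA, against 44753 and 64328 in IgG cells. That is 2.86-fold and 2.20-fold more. Of the IgG cells, 69 of 83 in F/F and 53 of 67 in CD4-Cre lay below the 25th percentile of Igha cells. Of the Ighm cells, 1 of 4 and 8 of 14 did, and Igha cells had 1.13-fold and 1.34-fold more Jchain per other RNA than Ighm cells. Jchain was counted in every one of these IgG cells: the lowest had 50 UMIs in F/F and 66 in CD4-Cre, against T-like medians of 13 and 12. The lowest Igha cells had 22 and 18 UMIs. T-like 95th percentiles were 390 and 114.5 UMIs, so the lowest IgG cells did not lie above all T-like cells. As a ratio to the heavy chain UMIs of the same cell, the medians were 0.445 and 0.489 in Igha cells and 0.277 and 0.283 in IgG cells. Within IgG this ratio was 0.360 and 0.384 in Ighg1 cells and 0.206 and 0.279 in Ighg2b cells. Ighg1 cells also had fewer heavy chain UMIs, with medians of 1177.5 and 1269 against 1985 and 1920 in Igha cells. Ighg2b cells had medians of 2069.5 and 1654.5.

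In cycling cells the gap in Jchain per other RNA was smaller, but the gap in its ratio to heavy chain was not smaller in CD4-Cre. The IgA over IgG ratio of Jchain CPM of other RNA was 1.49 in F/F (970 and 59 cells) and 1.51 in CD4-Cre (743 and 18 cells). The IgA over IgG fold of the median Jchain to heavy chain ratio was 1.58 in cycling cells and 1.605 in the others in F/F, and 1.99 and 1.73 in CD4-Cre. Cycling Igha cells had 33815 and 37874 Jchain CPM of other RNA, below the Igha cells that were not cycling. Heavy chain UMIs formed 6.57% and 6.58% of all UMIs in cycling Igha cells and 12.2% and 11.6% in the others, so both products took a smaller part of the RNA of cycling cells.

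**Figure D4:**
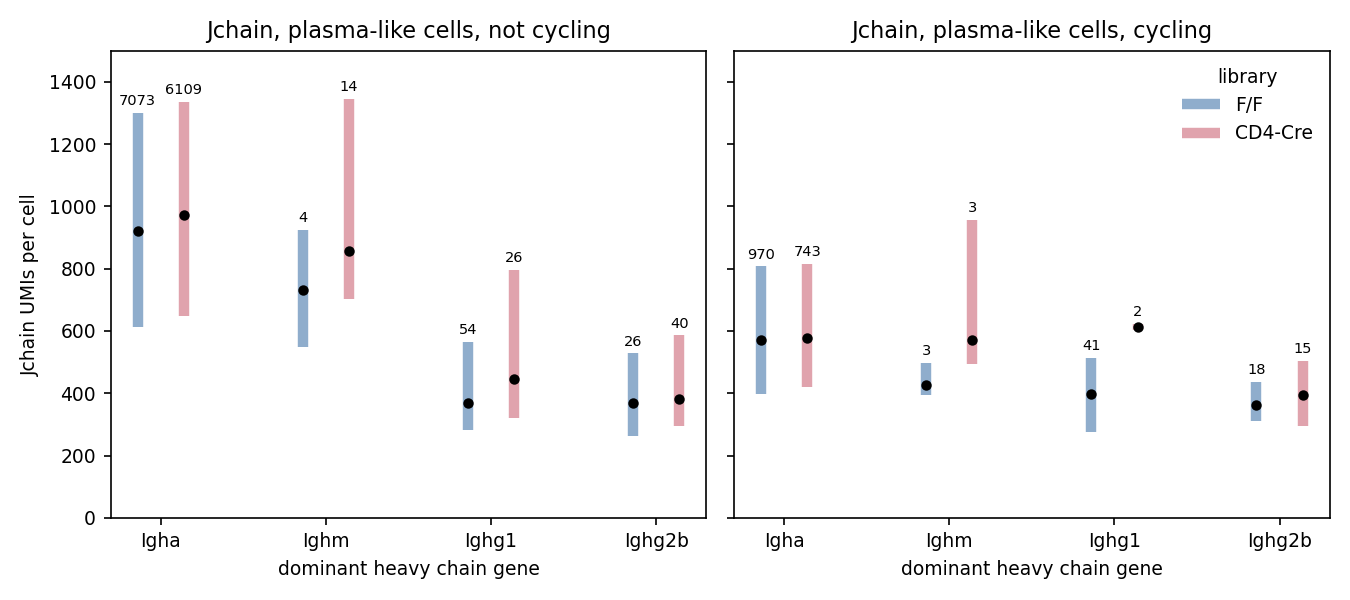
Jchain UMIs per cell by dominant heavy chain gene in plasma-like cells not cycling (left) and cycling (right); points are medians, bars run from the 25th to the 75th percentile and the number of cells stands above each bar. In cells not cycling, Igha and Ighm cells have medians of 733 to 972 UMIs and Ighg1 and Ighg2b cells of 367.5 to 445.

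Between the pools, the abundant members were alike in plasma-like cells. Igha stood at 108854 CPM in F/F and 106256 in CD4-Cre, a ratio of 0.976, and Jchain at 48521 and 51812, a ratio of 1.07. Ighg2b stood at 896 and 973 CPM, a ratio of 1.09. Since 3′ UMIs count molecules and not fragments, these levels do not scale with transcript length.

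Past 1.5-fold in plasma-like cells, 3 of 9 members were higher in CD4-Cre and 2 were lower; of all 12339 genes compared, 1.21% were higher, 2.83% were lower and 4.04% were either. Ighm was at 211 CPM in F/F and 416 in CD4-Cre (ratio 1.97), and 5 cells held 29.6% and 32.0% of its UMIs. Ighg1 was at 1012 and 430 CPM (ratio 0.424). Ighg2c was at 5.21 and 14.8 CPM (ratio 2.84), with 90.3% and 90.9% of its UMIs in 5 cells. Ighg3 was at 31.2 and 8.54 CPM (ratio 0.274), with 70.9% of the F/F UMIs in 5 cells. Ighe was at 0.624 and 0.957 CPM (ratio 1.53), with 68.0% and 52.7% in 5 cells.

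The ratios of the rare members depended on few cells or on the clustering. With the top 5 Ighg3 cells of either pool removed, its log2 ratio was -0.38, against -1.87 with them, and at a coarser clustering it was -0.16. That of Ighg2c was 0.00 as a mean over cells and 0.54 without the top 10% of Scrublet scores, against 1.51 from summed UMIs. That of Ighe, 0.62, lay below 1.5-fold under 4 alternatives: 0.56 in cells with at least 2000 UMIs, 0.51 with pancreatic and gastric genes kept in the clustering, 0.48 at the coarser clustering and 0.47 without Scrublet's calls. Ighm stayed between 0.89 and 1.08 and Ighg1 between -1.56 and -1.07 on the log2 scale in every alternative run. Ighd, at a log2 ratio of -0.20, turned to 0.17 without its 5 highest cells and to 0.01 at the coarser clustering.

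Ighg1 differed in the same direction in classes that should lack it. It was the 1 of 5 members measured in T-like cells that was 1.5-fold lower in CD4-Cre (1.38% of all genes were). In macrophage-like cells Ighg1 and Ighg2b were, 2 of 5 measured (3.54% of all genes). T-like cells had 426 CPM of Ighg1 in F/F and 148 in CD4-Cre, and macrophage-like cells 328 and 53.9. The single highest cell held 1732 of the 3292 Ighg1 UMIs of F/F T-like cells and 905 of the 1658 of F/F macrophage-like cells. In CD4-Cre it held 1066 of 1529 in T-like cells and 22 of 179 in macrophage-like cells. Free RNA had 862 and 515 CPM, as given above. The part of free RNA and doublets in the plasma-like ratio was not tested.

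In B-like cells 6 members were measured well enough to compare. Ighg2b was more than 1.5-fold higher in CD4-Cre, in a class where 24.7% of 4653 genes were, and 4 were lower (Igha, Ighm, Ighg1 and Ighg3), where 7.03% of genes were. Ighg2b stood at 538 CPM in F/F and 1691 in CD4-Cre, with 91.1% and 92.7% of its UMIs in 5 cells. Ighm stood at 6316 CPM in F/F and 2078 in CD4-Cre, with 88.9% and 82.5% of its UMIs in 5 cells. Ighg3 stood at 1887 and 640 CPM, with 99.6% and 99.9% in 5 cells. The B-like cells of the pools also differed in cycling, with 16 of 74 F/F cells (21.6%) and 77 of 162 CD4-Cre cells (47.5%). That difference in cycling was not separated from the members' ratios. Without the 5 highest cells the log2 ratio of Ighg1 was -0.52, against -2.05, and that of Igha -0.35, against -0.60, both below 1.5-fold. As a mean over cells that of Igha was -0.26. Jchain, at a log2 ratio of -0.52, passed 1.5-fold under 3 alternatives, at -0.65 per UMI outside immunoglobulin genes, -0.66 in cells with at most 5% mitochondrial UMIs and -1.12 without the top 10% of Scrublet scores.

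Related genes of antibody making mostly differed by less than 1.5-fold between the pools. Of 36 listed genes, 33 were measured in plasma-like cells, none was 1.5-fold higher in CD4-Cre and 1 was lower; their median log2 ratio was 0.05, against -0.07 over all genes tested. The lower one was Iglc2, a lambda light chain constant gene, at 5027 CPM in F/F and 2732 in CD4-Cre (ratio 0.544). Igkc, the kappa constant gene, was at 328718 and 362908 CPM and Iglc1 at 15357 and 18000. Xbp1, a driver of the secretory programme, was at 1034 and 865 CPM (ratio 0.837). Prdm1, which encodes Blimp-1, was at 57.7 and 39.9 (ratio 0.692). Both were thus lower in CD4-Cre, by less than 1.5-fold. The chaperone gene Hspa5 was at 1393 and 1445 CPM. Ccr10, a receptor that guides IgA cells to mucosa, was at 365 and 340 CPM.

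Across the 25 clusters, with both libraries summed, the genes most like Igha were Gm30211 (Pearson r of log2 CPM 0.977), Sdc1 (0.970) and Xbp1 (0.967). For Jchain they were Gm30211 (0.968), Edem2 (0.967) and Xbp1 (0.962). For Ighm they were Tnfrsf13c (0.768), which encodes the receptor for the survival factor BAFF, Ms4a1 (0.710) and Blvrb (0.691), which encodes a biliverdin reductase. For Ighg2c no gene passed 0.439, reached by Srp72. The clusters share libraries and free RNA, so these are descriptions.

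IgG cells differed from IgA cells in other genes too. Among plasma-like cells not cycling, 399 of 10075 genes were at least 1.5-fold higher in IgG cells in both libraries (3.96%) and 592 were lower (5.88%), over 83 F/F and 67 CD4-Cre IgG cells. These counts rest on the ratio alone, for genes with at least 100 UMIs over both groups. Few of those UMIs can lie in the IgG cells. Pced1a, among the 6 largest folds on the lower side, had 1 UMI in the IgG cells of each library. Its CD4-Cre interval, 0.00463 to 1.03, included no change. The part of counting error in the 2 counts was not tested. Ms4a1, which encodes the B cell protein CD20, was at 14.6 and 28.1 CPM of other RNA in IgG cells, against 1.95 and 2.20 in IgA cells, from 12 and 15 UMIs. Stmn1, a microtubule regulator of dividing cells, was at 130 and 126 against 30.4 and 28.8. Mcm3, part of the replicative helicase, was at 47.5 and 41.3 against 12.1 and 10.0. Dna2, another gene of DNA replication, was also among the 6 with the largest folds, although these IgG cells did not meet the cycling call.

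On the lower side, Hdac9, a histone deacetylase gene, was at 26.8 and 50.7 CPM of other RNA in IgG cells against 260 and 290 in IgA cells. Il1rapl2 had 1 and 0 UMIs in IgG cells against 69.9 and 63.4 CPM of other RNA in IgA cells, at least 11.3-fold lower in CD4-Cre when 3 UMIs are taken as the floor. Rnase2b, a ribonuclease gene, had 0 and 1 UMIs against 28.8 and 39.1 CPM of other RNA. IgM cells, 4 and 14, were too few for such a comparison.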

How the data were processed

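The deposited files hold unfiltered UMI counts per gene and barcode, made by the authors with Cell Ranger 7.2.0 on mm10 (GRCm38), per the submitters' processing notes; Seurat 5.0.1, named there, was not used here. The deposited counts were used as they stand. Depth was 222838658 UMIs in F/F and 200580083 in CD4-Cre.

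Cells had at least 1000 UMIs, 500 genes and at most 10% mitochondrial UMIs. They were clustered with scanpy 1.11.5 (2000 variable genes chosen per library, without immunoglobulin, Jchain, pancreatic and gastric genes; 30 components, 15 neighbours, Leiden resolution 1). Clusters were named from fixed marker lists, with score limits set after the clusters were seen; those of mixed markers, low UMIs or pancreatic genes stayed unnamed. Doublets were scored with Scrublet and kept.

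A ratio compares UMIs summed over a class, CD4-Cre over F/F, in CPM; genes needed 100 UMIs over both libraries and counted as different from 1.5-fold. Shares carry exact Clopper-Pearson intervals, levels exact Poisson intervals, both at 95%; a count of 0 was taken to allow 3. All cover counting error only. Code was tested on simulated data.

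Named genes were the 9 members, 36 related genes where 1.5-fold different (others as examples), the 3 genes most like each of Igha, Ighm, Ighg2c and Jchain over clusters, and the 6 leading genes per direction between IgG and IgA cells. Members and lists were chosen with earlier results of these data known. Gene positions and tails came from GENCODE vM21. Alternatives varied call, filter, clustering, doublet and denominator settings.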

Additional observations from a re-analysis of the deposited data

Results flagged for a closer look

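Ighm went opposite ways in 2 classes of B lineage cells. The CD4-Cre over F/F ratio of its CPM was 1.97 in plasma-like cells (211 and 416 CPM) and 0.329 in B-like cells (6316 and 2078 CPM). Plasma-like cells dominated by Ighm numbered 7 in F/F and 17 in CD4-Cre. They held 12202 of 33832 and 39279 of 56133 Ighm UMIs of the class. In Igha-dominant cells Ighm was at 133 and 124 CPM. In B-like cells 5 cells held 88.9% and 82.5% of the Ighm UMIs, and without the 5 highest the log2 ratio was -1.08, against -1.60 with them. At least 10 Ighm UMIs were found in 22.5% (F/F) and 21.8% (CD4-Cre) of B-like cells. The difference between the classes was not tested, since each genotype is 1 library.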

How the results depend on the processing

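No paired analysis was possible because each genotype is 1 pool with no replicate number, and no replicate could be left out. The Igha share of B-like cells depended on the call: 72.7% and 82.5% in F/F and CD4-Cre from 100 heavy chain UMIs, 43.2% and 40.9% after subtracting free RNA, and 84.0% in CD4-Cre thinned to 1500 UMIs, against 88.8% and 91.8%. Without the most common variable segment the Igha share of F/F plasma-like cells was 98.7%, and their IgG share 3.86% among cycling cells and 0.897% among others. The log2 ratio of Igha in plasma-like cells, -0.03, was 0.07 per UMI outside immunoglobulin genes, which turns its sign below 1.5-fold; it was -0.04 at up to 5% mitochondrial UMIs, -0.05 at Leiden resolution 0.5, -0.05 with pancreatic genes kept, -0.03 without the top 10% of Scrublet scores, -0.06 as a mean over cells and -0.01 without Scrublet's calls. Genes past 1.5-fold were 1497 with a 20 UMI minimum, against 498; the lower minimum tests 15399 genes and not 12339. Free Igha was 69490 and 71618 CPM in barcodes with 10 to 100 UMIs and 103025 and 110664 CPM with 350 to 500. The cause of these shifts was not tested where no count is given. The other 121 values of main results stayed within their interval. Among single genes and shares 140 did and 106 did not. The members whose 1.5-fold difference was lost or gained are given with the ratios in the results. The number of cells limits every IgM value.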
